A study of Homo sapiens with 16 samples.

Results

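FOXB1 knockout cells (KO) were compared with isogenic wild-type cells (WT) at day 3 of human neural crest induction, across all measured genes. The members of the comparison were the genes with at least 1 FPKM (fragments per kilobase of transcript, scaled to the mapped fragments of the library) in KO or WT cells, whose fit had not failed in the authors' deposited table. They numbered 13826 of the 23284 genes of the table, and 13697 of them were tested there; 128 were not tested and 1 exceeded the depth limit of the fit. The lowest member stood at 1 FPKM in its higher group and the gene just outside at 0.9999 FPKM; 65 genes called in the table lay below that floor. Both groups were made from WA01, a human embryonic stem cell line, plated at 20000 cells per cm2 in medium with the WNT pathway activator CHIR99021 (3 µM) and, for the first 2 days, the ROCK inhibitor Y-27632 (10 µM). The KO group had 2 samples of 1 line, sgRNA-KO, edited with CRISPR/Cas9 and 1 guide RNA at the translational start of FOXB1. A second edited line, sgRNA-Het (Het), had 2 samples. The WT samples were 2 each of the lines isoWT1 and isoWT2. The labels call the day 3 cells of each line pre-neural crest. The series was made to learn what removal of the FOXB1 protein does during this induction.

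Each gene has a single FPKM per group in the table, without counts or values of separate libraries; the depth is therefore unknown, and which of the 4 WT libraries entered the WT group is not stated. Each log2 change is KO over WT, with the standard error (SE) that the deposited test score implies; its median over the members was 0.51. The words rose and fell are kept for genes that the authors' deposited table calls at a q-value below 0.05. As the KO group is 1 line, the edit and other differences between lines cannot be told apart. In these bulk samples, fewer cells of a type and less RNA per cell cannot be told apart either.

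FOXB1 encodes a forkhead transcription factor of the early neural plate and the developing midbrain and hypothalamus. The neural crest is a migratory population that forms at the border between neural plate and surface ectoderm. WNT, BMP and FGF signals induce the border factors PAX3, PAX7, MSX1, ZIC1 and TFAP2A there, and retinoic acid and Hedgehog signals pattern the adjoining neural tube. SOX1, SOX2 and SOX3 mark neural progenitors.

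FOXB1 itself stood at 15.5 FPKM in KO cells and 18.3 FPKM in WT cells (log2 change -0.24, SE 0.56) and was not called. It was called lower in Het cells than in WT cells at day 3, at 7.73 FPKM (log2 change -1.25, Het over WT, q-value 0.0117 in the authors' deposited table). At day 5 it was called lower in KO cells, at 1.86 FPKM in KO cells and 5.51 FPKM in WT cells (log2 change -1.56, SE 0.69, q-value 0.0142 in the authors' deposited table). The edit lies at the start of translation, and these RNA levels give no check of whether the protein was lost. The promoter of FOXB1 is shown because the gene is the one edited. It is given in GRCh38.p14 from RefSeq, plus strand, chr15:60004061-60004360, from 250 bases before to 50 bases after the start site. Capitals mark the 1 match to the forkhead letters TGTTTAC or TATTTAC, searched on both strands, which begins 190 bases before the start site. Such a match is held by 6.05% of 27305 RefSeq promoters of this length, and by 3.36% of the 10421 members matched to a promoter.
FOXB1: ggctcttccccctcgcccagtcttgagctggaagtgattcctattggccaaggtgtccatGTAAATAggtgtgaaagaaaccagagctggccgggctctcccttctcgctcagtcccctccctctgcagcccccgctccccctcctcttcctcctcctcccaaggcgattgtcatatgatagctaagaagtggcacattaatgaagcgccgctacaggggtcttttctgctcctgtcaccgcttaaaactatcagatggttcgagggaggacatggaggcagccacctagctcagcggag

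Of 4 neural crest markers 3 were higher and 1 was lower in KO cells, with a median log2 change of 1.95 (FPKM plus 0.1). They summed to 29.3 FPKM in KO cells and 30.6 FPKM in WT cells, most of it from the marker that was lower and not called. TFAP2B rose, at 1.32 FPKM in KO cells and 0.135 FPKM in WT cells. SOX10, a later crest factor, stood at 1.27 FPKM in KO against 0.455 FPKM in WT, and FOXD3 at 3.28 FPKM in KO against 0.0313 FPKM in WT; neither was called. All 5 neural plate border markers rose, and their summed level was 81 FPKM in KO cells and 3.76 FPKM in WT cells. Of 4 neural progenitor markers, 3 reached 1 FPKM and SOX1 and SOX2 fell; their sum was 78.9 FPKM in KO cells and 182.7 FPKM in WT cells. Blood and epidermis markers were near 0, with no gene at 1 FPKM: the 4 blood markers summed to 0.196 FPKM in KO cells and 0.0653 FPKM in WT cells, and the 4 epidermis markers to 0.0936 FPKM in KO cells and 0.257 FPKM in WT cells. The 5 nascent mesoderm markers summed to 15.6 FPKM in KO cells and 0.975 FPKM in WT cells, and 1 of them, T, rose. Of 5 pluripotent markers 1 rose, and they summed to 772.1 FPKM in KO cells and 576.4 FPKM in WT cells. Of 5 definitive endoderm markers CXCR4 alone reached 1 FPKM, with sums of 21.9 FPKM in KO cells and 7.94 FPKM in WT cells, and FOXA2 and GATA4 were listed at 0 in WT cells. Another of these 5 was called below the floor. Endothelium markers (1 of 5 rose) summed to 43.3 FPKM in KO cells and 25.6 FPKM in WT cells, and neuron markers (1 rose and 1 fell of 5) to 122.3 FPKM in KO cells and 162.2 FPKM in WT cells. Of 4 fibroblast markers PDGFRA was called higher below the floor (0.881 FPKM in KO against 0.290 FPKM in WT), and the 4 summed to 6.82 FPKM in KO cells and 3.63 FPKM in WT cells. The part of such other cells in the results below was not tested.

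Of the tested members, 589 rose (4.3%) and 742 fell (5.42%). Most changes were small: 88.55% of the members had a log2 change within 1 of 0, and the median change was -0.01. Changes of 3 or more on that scale comprised 60 rises and 30 falls. Among the 82 genes with a mean above 1000 FPKM, 16 fell and 0 rose, against 138 rises and 107 falls among the 2501 genes between 1 and 3 FPKM. Just past the threshold, 251 rises and 382 falls had a q-value between 0.01 and 0.05, and just short of it 203 higher and 286 lower members had a q-value between 0.05 and 0.1, in the authors' deposited table. Read with a normal p of the deposited score in place of the deposited p-value, 148 genes rose and 95 fell. With changes centred within bins of like transcript GC content, 582 rose and 352 fell.

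**Figure D1:**
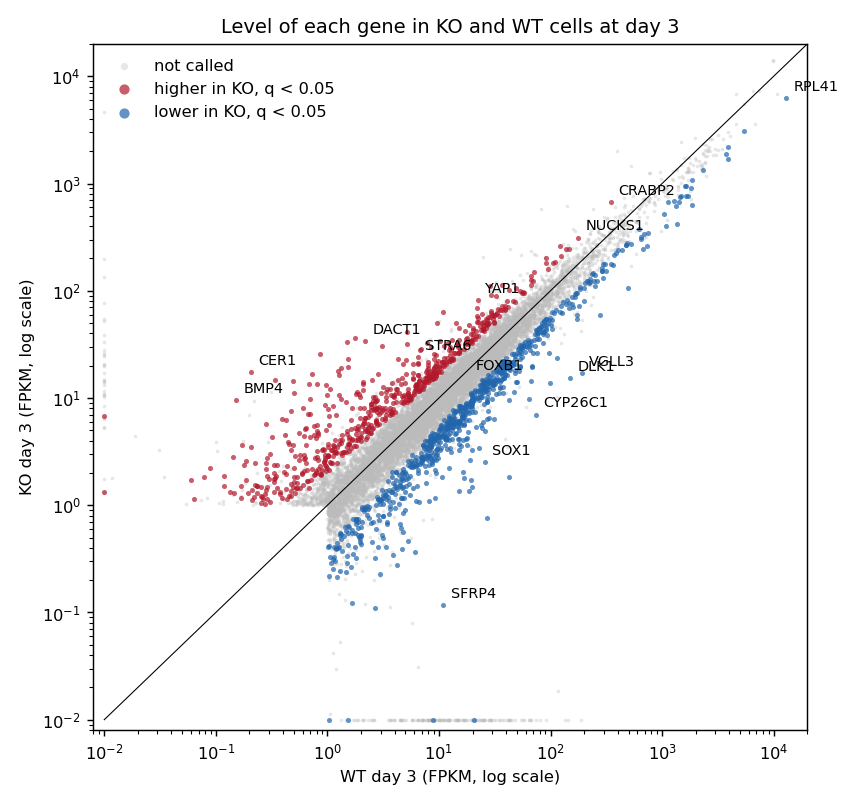
Level of each member in KO cells (y axis) against WT cells (x axis) at day 3, in FPKM on log scales, with 1 point per gene; red points rose, blue points fell, and values at or below 0.01, zeros included, are drawn at the edge. Rises spread far from the diagonal at low levels (CER1, 17.5 FPKM in KO against 0.206 FPKM in WT), whereas the most abundant called genes, such as RPL41 on chromosome 12, lie below it.

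After the first 10 ranks, which include BMP4, TFAP2A and PAX7, the largest rises held signalling regulators of several pathways. VSNL1, a neuronal calcium sensor, stood at 33.2 FPKM in KO cells against 1.501 FPKM in WT cells (log2 change 4.47, SE 0.58). ETV3L, an ETS-family factor gene on the long arm of chromosome 1, stood at 3.65 FPKM in KO against 0.172 FPKM in WT (log2 change 4.40, SE 0.86), and EDNRB, the endothelin receptor B of migrating crest cells, at 5.77 FPKM in KO against 0.283 FPKM in WT (log2 change 4.35, SE 0.93). PAPPA, a protease that frees IGF from its binding proteins, stood at 13.6 FPKM in KO against 0.683 FPKM in WT (log2 change 4.32, SE 0.51). RSPO3, a secreted WNT agonist, stood at 3.51 FPKM in KO against 0.206 FPKM in WT (log2 change 4.09, SE 0.79), and DACT1, a regulator of the WNT transducer Dishevelled, at 33.7 FPKM in KO against 2.17 FPKM in WT (log2 change 3.96, SE 0.54). TNMD, TTC29, KLHL14 and EDN1 also stood among ranks 11 to 25, with log2 changes of 4.31, 4.02, 4.14 and 3.98. TNMD, KLHL14 and EDN1 stayed below 3 FPKM in both groups.

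The largest falls after the first 10 joined progenitor factors with genes of retinoic acid metabolism, a YAP-pathway cofactor and secreted proteins. VGLL3, a cofactor of TEAD transcription factors, stood at 17.1 FPKM in KO cells against 192 FPKM in WT cells (log2 change -3.48, SE 0.41). DLK1, an imprinted Notch-family ligand, stood at 15.3 FPKM in KO against 151 FPKM in WT (log2 change -3.30, SE 0.47), and CYP26C1, which degrades retinoic acid, at 6.99 FPKM in KO against 74.4 FPKM in WT (log2 change -3.41, SE 0.57). APLN, a secreted peptide of vessel growth, stood at 0.468 FPKM in KO against 5.26 FPKM in WT (log2 change -3.49, SE 0.65), and NPTX1, a secreted neuronal pentraxin, at 1.36 FPKM in KO against 15.02 FPKM in WT (log2 change -3.47, SE 0.53). DACH2, TNNI3, PI15, SMOC2 and FLG fell, with log2 changes of -3.50, -3.11, -3.05, -3.04 and -3.56, each below 5 FPKM in WT cells. LOC389634, on chromosome 12, closed the ranking at -2.91 with a q-value of 0.041 in the authors' deposited table.

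**Figure D2:**
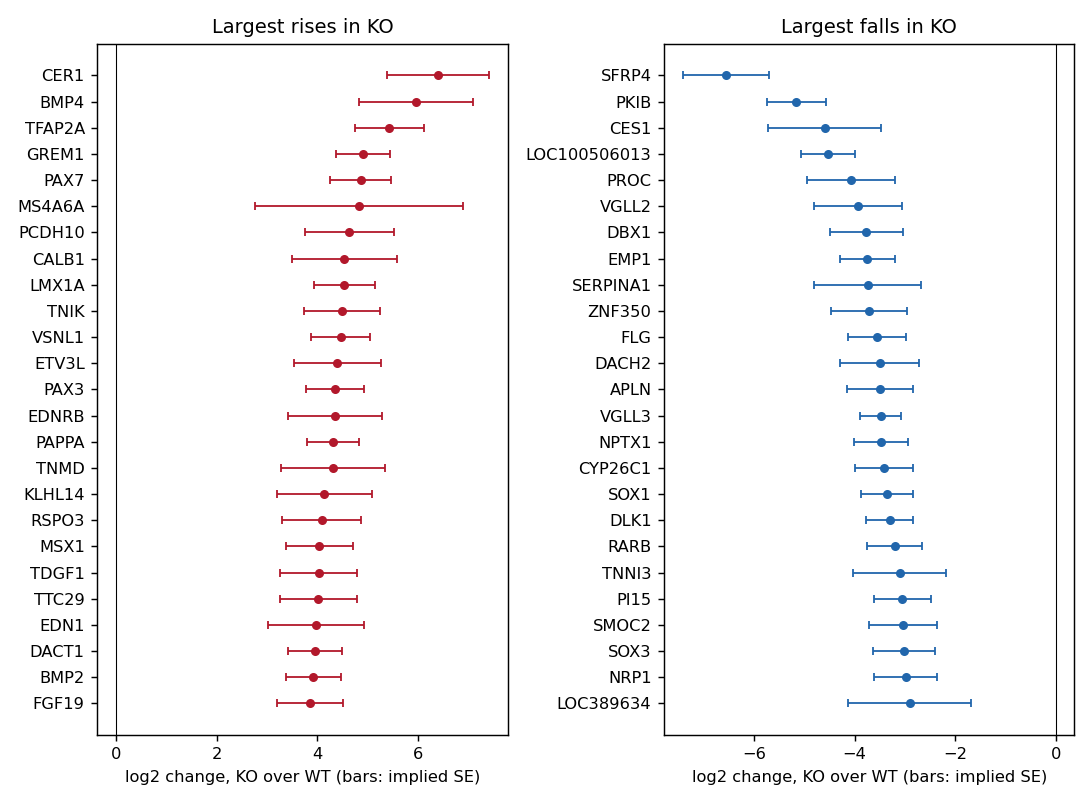
Log2 change of KO over WT at day 3 for the 25 largest rises (left) and the 25 largest falls (right) among called genes above 0 FPKM in both groups; points are the changes and bars the implied SE. Rises run from 6.41 for CER1 to 3.86 for FGF19, and falls from -6.56 for SFRP4 to -2.91 for LOC389634.

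Few genes were near 0 in one group and above the floor in the other. Below 0.1 FPKM in WT cells and at 1 FPKM or more in KO cells stood 17 genes, of which 6 were called. DKK4, a secreted WNT inhibitor, was listed at 0 in WT and Het cells and at 6.74 FPKM in KO cells, and TUSC1 at 0 in WT cells and 1.34 FPKM in KO cells. The mesendoderm factor EOMES stood at 4.46 FPKM in KO against 0.0189 FPKM in WT (log2 change 7.88, SE 1.84), with a q-value of 0.59 in the authors' deposited table, and was not called. In the other direction stood 12 genes, of which 3 were called. GNG8, a G-protein gamma subunit, was listed at 0 in KO cells and at 8.91 FPKM in WT cells. GPRC5D, an orphan receptor gene on chromosome 12, was listed at 0 in KO cells and at 1.53 FPKM in WT cells, and NPS, which encodes neuropeptide S, at 0 in KO cells and 1.03 FPKM in WT cells. ZNF560, at 0.0307 FPKM in KO cells and 6.54 FPKM in WT cells, was not called. A listed 0 can be a failed estimate, since EEF1A1, a translation factor gene of every cell, was listed at 4616 FPKM in KO cells and 0 in WT cells.

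**Figure D3:**
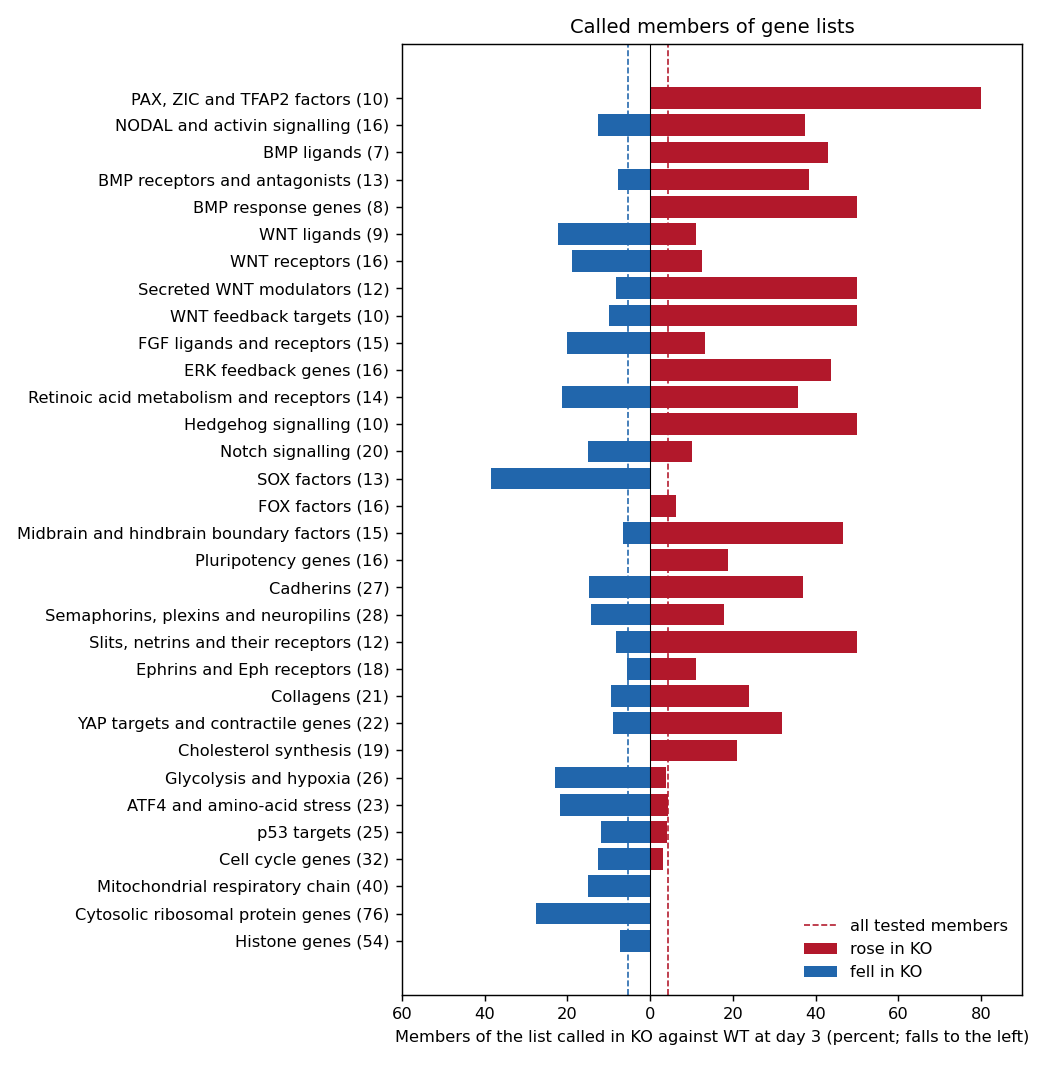
Share of the members of each gene list (number of members in brackets) that rose (bars to the right) or fell (bars to the left) in KO against WT at day 3, in percent; dashed lines mark the shares over all tested members, 4.3% and 5.42%. Among the lists drawn, PAX, ZIC and TFAP2 factors reach the highest share of rises (8 of 10 members) and SOX factors the highest share of falls (5 of 13 members).

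The factors of the neural plate border rose together, while the SOX members fell or were not called. Of 10 PAX, ZIC and TFAP2 members, 8 rose and 0 fell, with a median log2 change of 2.43 (FPKM plus 0.1) beside -0.02 over all members. They were PAX2, PAX3, PAX7, ZIC1, ZIC5, TFAP2A, TFAP2B and TFAP2C. Among the 6 members of this list at 1 FPKM or more in both groups the median was 0.98. TFAP2C, a surface ectoderm factor, stood at 4.96 FPKM in KO cells against 2.18 FPKM in WT cells (log2 change 1.18, SE 0.59), and ZIC5 at 33.6 FPKM in KO against 18.96 FPKM in WT (log2 change 0.82, SE 0.43). ZIC2 (159.9 FPKM in KO against 125.4 FPKM in WT), the most abundant of the group, was not called. Of 13 SOX members, 0 rose and 5 fell, with a median of -0.53. Within GC bins 1 SOX member rose and 5 fell, and 1 further SOX gene was called below the floor of 1 FPKM. SOX2, shared by progenitors and pluripotent cells, stood at 75.5 FPKM in KO cells against 155 FPKM in WT cells (log2 change -1.03, SE 0.45), SOX21 at 11.3 FPKM in KO against 47.3 FPKM in WT (log2 change -2.06, SE 0.48) and SOX5, on chromosome 12, at 1.77 FPKM in KO against 5.10 FPKM in WT (log2 change -1.53, SE 0.55). The crest factor SOX9 stood at 4.92 FPKM in KO against 2.75 FPKM in WT (log2 change 0.84, SE 0.55) and was not called. Of 16 FOX members, FOXH1 alone rose.

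Regional factors of the midbrain and its border with the hindbrain held more rises than falls. Of 15 members 7 rose and 1 fell, with a median of 0.76. OTX2, a forebrain and midbrain factor, stood at 63.4 FPKM in KO cells against 10.97 FPKM in WT cells (log2 change 2.53, SE 0.49), DMBX1 at 14.8 FPKM in KO against 2.50 FPKM in WT (log2 change 2.56, SE 0.54) and TAL2 at 3.73 FPKM in KO against 0.457 FPKM in WT (log2 change 3.03, SE 1.12). EN1, LMX1A (on the long arm of chromosome 1) and LMX1B rose by 1.15, 4.54 and 1.13, and IRX1 fell (-0.99); its change was -0.15 within GC bins and no longer called. Of 8 placode members 2 rose, SIX4 (8.10 FPKM in KO against 2.78 FPKM in WT) and EYA4 (1.30 FPKM in KO against 0.193 FPKM in WT), and SIX5 and IRX1 fell; neither fall was called within GC bins.

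The NODAL pathway, which drives mesendoderm formation and keeps stem cells pluripotent, had rises in its ligand, co-receptor, inhibitor and response genes. Of 16 members 6 rose and 2 fell, with a median of 1.02. The ligand NODAL stood at 5.22 FPKM in KO cells against 0.642 FPKM in WT cells (log2 change 3.02, SE 0.69), its co-receptor TDGF1 at 7.62 FPKM in KO against 0.467 FPKM in WT (log2 change 4.03, SE 0.77) and CER1, which blocks NODAL and BMP outside the cell, at 17.5 FPKM in KO against 0.206 FPKM in WT (log2 change 6.41, SE 1.01). SMAD7 and SKIL, feedback inhibitors of SMAD signalling, stood at 4.98 FPKM in KO against 0.976 FPKM in WT and 4.93 FPKM in KO against 1.49 FPKM in WT, with log2 changes of 2.35 and 1.73. FOXH1, a SMAD partner, stood at 9.47 FPKM in KO against 3.35 FPKM in WT (log2 change 1.497, SE 0.67). Several rises rested on genes below 1 FPKM in WT cells, and among members at 1 FPKM or more in both groups the median was -0.13. GDF3 (3.90 FPKM in KO against 0.0998 FPKM in WT) and LEFTY1 (1.18 FPKM in KO against 0.0841 FPKM in WT) were not called. The receptor ACVR1B fell (-0.78) and so did INHBE (-1.30), both on chromosome 12.

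BMP ligands, inhibitors and response genes all held rises. Of 7 ligands 3 rose, BMP2, BMP4 and BMP7, the last at 13.2 FPKM in KO cells against 6.19 FPKM in WT cells (log2 change 1.09, SE 0.48). Of 13 receptors and antagonists 5 rose and CHRD fell. The extracellular inhibitor NOG stood at 4.37 FPKM in KO against 0.319 FPKM in WT (log2 change 3.77, SE 0.84), the decoy receptor BAMBI at 7.04 FPKM in KO against 0.672 FPKM in WT and the receptor BMPR1A at 35.5 FPKM in KO against 21.2 FPKM in WT. CHRD, another extracellular inhibitor, stood at 2.06 FPKM in KO against 4.75 FPKM in WT (log2 change -1.21, SE 0.57); within GC bins the list had 3 rises and 0 falls. Of 8 response genes 4 rose and 0 fell, with a median of 1.64, and 5 were higher and 3 lower. Among the 6 at 1 FPKM or more in both groups the median was 0.70. The list, genes below the floor included, summed to 315.6 FPKM in KO and 280.1 FPKM in WT. ID1 and ID4, inhibitors of bHLH factors, stood at 30.1 FPKM in KO against 8.57 FPKM in WT (log2 change 1.81, SE 0.57) and 8.21 FPKM in KO against 2.89 FPKM in WT (log2 change 1.505, SE 0.52), and MSX2 at 17.99 FPKM in KO against 1.24 FPKM in WT (log2 change 3.85, SE 0.60).

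WNT genes changed in both directions. Of 12 secreted modulators 6 rose and 1 fell. APCDD1, a WNT inhibitor at the cell surface, stood at 27.9 FPKM in KO cells against 6.82 FPKM in WT cells (log2 change 2.03, SE 0.50), FRZB at 15.8 FPKM in KO against 8.52 FPKM in WT and DKK3 at 13.1 FPKM in KO against 6.32 FPKM in WT, while SFRP4 fell, at 0.116 FPKM in KO against 10.9 FPKM in WT (log2 change -6.56, SE 0.86). Of 10 feedback targets 5 rose and NKD2 fell. AXIN2 stood at 39.5 FPKM in KO against 20.2 FPKM in WT (log2 change 0.96, SE 0.43), LEF1 at 30.3 FPKM in KO against 11.1 FPKM in WT (log2 change 1.44, SE 0.46), SP5 at 45.4 FPKM in KO against 20.3 FPKM in WT (log2 change 1.16, SE 0.48), and NKD1 and SP8 changed by 0.94 and 1.02. TCF7 and ZNRF3 had log2 changes of -0.23 and 0.08 and were not called. Among 9 ligands WNT3A rose (1.74 FPKM in KO against 0.331 FPKM in WT), while WNT8A (4.56 FPKM in KO against 12.1 FPKM in WT) and WNT5A (0.406 FPKM in KO against 1.14 FPKM in WT) fell; within GC bins 3 ligands rose and 2 fell. Of 16 receptors FZD1 and ROR1 rose, and FZD2, FZD9 and LRP5 fell; within GC bins 1 receptor rose and 0 fell.

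The promoters of SP5 and DACT1 are shown because both genes rose and hold the TCF/LEF letters, which WNT-responsive genes often carry. Both are given in GRCh38.p14 from RefSeq, plus strand, chr2:170715087-170715386 for SP5 and chr14:58633811-58634110 for DACT1, from 250 bases before to 50 bases after the start site. Capitals mark CTTTGAT or CTTTGAA on either strand. SP5 held 3 matches, beginning 148, 109 and 84 bases before the start site, and DACT1 held 1, beginning 214 bases before it.
SP5: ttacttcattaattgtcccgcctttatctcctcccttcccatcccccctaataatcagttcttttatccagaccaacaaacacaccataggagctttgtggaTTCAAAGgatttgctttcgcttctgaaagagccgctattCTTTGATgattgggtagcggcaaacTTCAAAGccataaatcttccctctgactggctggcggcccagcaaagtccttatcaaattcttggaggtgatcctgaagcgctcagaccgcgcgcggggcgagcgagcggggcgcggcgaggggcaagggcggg
DACT1: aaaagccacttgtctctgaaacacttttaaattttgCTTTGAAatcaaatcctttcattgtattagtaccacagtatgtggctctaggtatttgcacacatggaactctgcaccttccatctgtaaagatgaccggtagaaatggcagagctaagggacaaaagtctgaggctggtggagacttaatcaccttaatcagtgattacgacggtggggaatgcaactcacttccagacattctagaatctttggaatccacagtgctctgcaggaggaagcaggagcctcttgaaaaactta
Over all 27305 promoters of this length, 6.98% held such a match, and over the 10421 members matched to a promoter 3.78% did. Of other named genes, SP8 and EDN1 rose and held such letters, and DBX1 and EMP1 fell and held 1 match each. Many named rises held none, among them LEF1, RSPO3, BMP4, PAX3 and MSX1. Of the 589 genes that rose, 443 could be matched to a promoter, fewer than 80%, so a comparison of motif shares between risen and other genes is void for these data and is not given. A match describes these letters and is not a measured binding site.

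Of 16 ERK feedback members 7 rose and 0 fell, with a median of 0.56. The ETS factors ETV1, ETV4 and ETV5 stood at 9.42 FPKM in KO against 2.54 FPKM in WT, 11.01 FPKM in KO against 1.90 FPKM in WT and 4.54 FPKM in KO against 0.754 FPKM in WT, with log2 changes of 1.89, 2.53 and 2.59 (KO over WT). DUSP4 and DUSP5, phosphatases of ERK, changed by 1.18 and 1.43, and IL17RD by 1.79. The immediate early genes EGR1 (33.1 FPKM in KO against 36.7 FPKM in WT) and FOS (8.49 FPKM in KO against 7.88 FPKM in WT) were not called. Of 15 FGF ligands and receptors, FGF19 and FGF12 rose, and FGFR1, FGFR3 and FGFRL1 fell. FGFR3 stood at 17.2 FPKM in KO cells against 48.1 FPKM in WT cells (log2 change -1.49, SE 0.43), and FGFR1 at 93.7 FPKM in KO against 167 FPKM in WT (log2 change -0.83, SE 0.41).

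Enzymes that degrade retinoic acid and a receptor it induces fell, while CRABP2, STRA6, RDH10 and RXRG rose. Of 14 members 5 rose and 3 fell, with a median of -0.26. CYP26A1, a degrading enzyme, stood at 23.7 FPKM in KO cells against 113 FPKM in WT cells (log2 change -2.25, SE 0.44), beside CYP26C1 above. RARB, a receptor gene that retinoic acid induces, stood at 1.81 FPKM in KO against 16.6 FPKM in WT (log2 change -3.20, SE 0.55). STRA6, the membrane receptor for retinol uptake, stood at 23.9 FPKM in KO against 6.50 FPKM in WT (log2 change 1.88, SE 0.54). CRABP2, which carries retinoic acid in the cell, stood at 668 FPKM in KO against 352 FPKM in WT (log2 change 0.93, SE 0.41) and gained the most FPKM of all called members, 317; it lies on the long arm of chromosome 1. RXRG, on the same arm, and RDH10, which oxidises retinol, changed by 1.67 and 1.01. Within GC bins RDH10 was not called. The synthesis genes ALDH1A2 (0.649 FPKM in KO against 0.0339 FPKM in WT) and ALDH1A3 (0.637 FPKM in KO against 0.152 FPKM in WT) stayed below the floor of 1 FPKM, where the authors' deposited table calls both higher in KO cells. CRABP1 (288 FPKM in KO against 415 FPKM in WT), RARA and RARG were not called.

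Cell-surface components of Hedgehog signalling and the factor GLI3 rose. Of 10 members 5 rose and 0 fell, with a median of 0.36. The co-receptors CDON, GAS1 and BOC stood at 28.7 FPKM in KO cells against 6.84 FPKM in WT cells (log2 change 2.07, SE 0.43), 21.1 FPKM in KO against 6.45 FPKM in WT (log2 change 1.71, SE 0.53) and 49.6 FPKM in KO against 27.9 FPKM in WT (log2 change 0.83, SE 0.46). GLI3, the main repressor among the GLI factors, stood at 51.4 FPKM in KO against 21.9 FPKM in WT (log2 change 1.23, SE 0.41), and HHIP, which binds the ligands, at 2.39 FPKM in KO against 0.179 FPKM in WT (log2 change 3.74, SE 0.89). PTCH1 and GLI1, which are among the targets of the pathway, stood at 26.4 FPKM in KO against 28.4 FPKM in WT and 4.67 FPKM in KO against 7.43 FPKM in WT and were not called. SHH was listed at 0 in both groups.

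**Figure D4:**
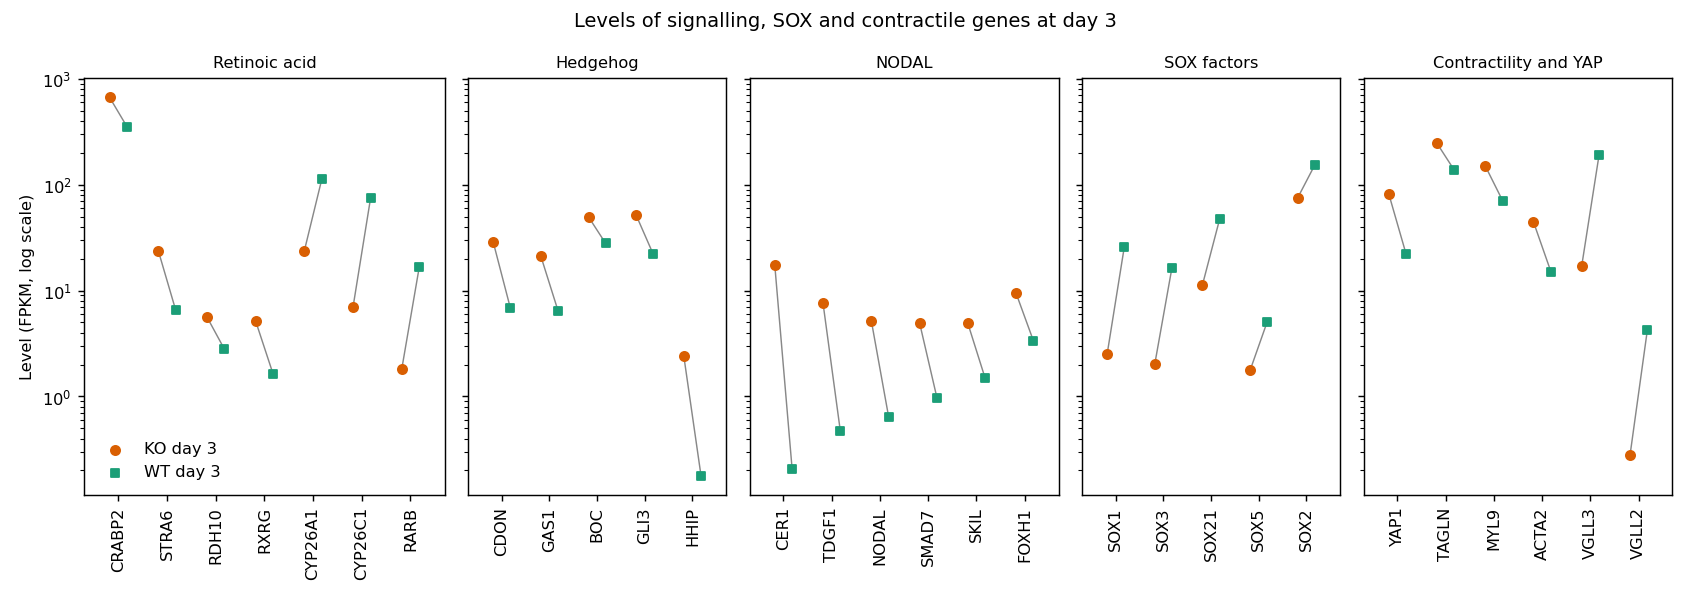
Level at day 3 in KO cells (circles) and WT cells (squares), in FPKM on a log scale, of called retinoic acid and Hedgehog genes, the 6 NODAL genes that rose, the 5 SOX genes that fell, and 6 contractile and YAP genes; lines join the values of a gene. CYP26A1, CYP26C1 and RARB are lower in KO cells while CRABP2, STRA6, RDH10 and RXRG are higher.

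Notch genes moved both ways. Of 20 members HEY1 and MAML3 rose, and DLL1, JAG2 and DLK1 fell. The target gene HEY1 stood at 1.04 FPKM in KO cells against 0.255 FPKM in WT cells (log2 change 2.03, SE 0.91) and the ligand JAG2 at 0.577 FPKM in KO against 1.48 FPKM in WT (log2 change -1.36, SE 0.70). The receptors NOTCH1, NOTCH2 and NOTCH3 had log2 changes of -0.42, 0.64 and -0.05, and the effector HES1 0.83; none was called.

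Some pluripotency, epithelial and mesendoderm genes rose. Of 16 pluripotency members 3 rose and 0 fell. ESRG, a long noncoding RNA of stem cells, stood at 260.4 FPKM in KO cells against 120.4 FPKM in WT cells (log2 change 1.11, SE 0.43), L1TD1 at 54.8 FPKM in KO against 26.3 FPKM in WT (log2 change 1.06, SE 0.42) and NANOG, on chromosome 12, at 6.76 FPKM in KO against 1.03 FPKM in WT (log2 change 2.72, SE 0.64). POU5F1 stood at 67.5 FPKM in KO against 45.7 FPKM in WT and LIN28A at 629 FPKM in KO against 465 FPKM in WT; neither was called. Of 19 epithelial members CDH1, CLDN6 and ESRP1 rose and 0 fell. ESRP1, an epithelial splicing regulator, stood at 2.56 FPKM in KO against 0.188 FPKM in WT (log2 change 3.77, SE 0.80), and the tight junction gene CLDN6 at 185 FPKM in KO against 109 FPKM in WT (log2 change 0.76, SE 0.42). Among 5 streak and mesoderm members above the floor, T, KDR and APLNR rose; the apelin receptor APLNR stood at 3.62 FPKM in KO against 0.487 FPKM in WT (log2 change 2.90, SE 0.77). MIXL1 stood at 9.35 FPKM in KO against 0.219 FPKM in WT (log2 change 5.42, SE 1.24) and was not called. PRRX1 (1.19 FPKM in KO against 0.258 FPKM in WT), a mesenchyme factor on the long arm of chromosome 1, rose at a low level.

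Het cells came from the other edited line. The comparisons of KO and of Het with WT share the WT group, and the comparison of KO with Het shares both, so levels are only set side by side. CER1, TDGF1, NODAL and NANOG stood at 0.126, 0.531, 0.620 and 0.797 FPKM in Het cells, near the WT levels, and CDH1 and ESRP1 at 0.442 and 0.145 FPKM. PAX3, GREM1, MSX2 and CDON stood at 29.3, 22.8, 18.2 and 29.9 FPKM in Het cells, near the KO levels. TFAP2A and BMP4 stood between, at 3.85 and 4.10 FPKM in Het cells. Their levels were 14.6 and 9.55 FPKM in KO cells and 0.338 and 0.153 FPKM in WT cells. In the authors' deposited table, KO against Het had a q-value of 0.00126 for NODAL and NANOG (3.07 and 3.09, KO over Het on the log2 scale), 0.0666 for CER1, 0.00126 and 0.0407 for TFAP2A and BMP4, and 0.655 and 0.851 for PAX3 and GREM1.

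Cadherins, which sort cells by contact, changed in both directions, with 10 rises and 4 falls among 27 members. CDH1 and CDH3, of epithelia, stood at 7.83 FPKM in KO cells against 1.01 FPKM in WT cells (log2 change 2.96, SE 0.62) and 2.76 FPKM in KO against 0.631 FPKM in WT (log2 change 2.13, SE 0.64), and CDH6, of the border and early crest, at 10.7 FPKM in KO against 1.00 FPKM in WT (log2 change 3.41, SE 0.49). CDH9 and PCDH7 stood at 11.8 FPKM in KO against 2.08 FPKM in WT and 6.91 FPKM in KO against 1.19 FPKM in WT, and the large cadherin FAT1 at 89.8 FPKM in KO against 32.7 FPKM in WT (log2 change 1.46, SE 0.42). CDH23, CDHR1, CELSR1 and PCDH8 fell, with log2 changes of -1.12, -1.15, -1.10 and -1.29; of these PCDH8 alone stayed called within GC bins. CDH2, the neural cadherin, stood at 84.5 FPKM in KO against 95.4 FPKM in WT (log2 change -0.18, SE 0.41) and was not called.

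Slit and netrin guidance molecules and their receptors held rises. Of 12 members 6 rose and 1 fell, with a median of 0.89. The ligand SLIT2 stood at 4.70 FPKM in KO cells against 0.816 FPKM in WT cells (log2 change 2.53, SE 0.58), its receptors ROBO1 and ROBO3 at 23.8 FPKM in KO against 13.3 FPKM in WT and 10.3 FPKM in KO against 1.98 FPKM in WT (log2 change 2.38, SE 0.52 for ROBO3), and the netrin receptors UNC5B and UNC5C at 6.64 FPKM in KO against 2.32 FPKM in WT and 1.495 FPKM in KO against 0.236 FPKM in WT. RGMA, a repulsive guidance protein, stood at 19.5 FPKM in KO against 68.8 FPKM in WT (log2 change -1.82, SE 0.43). Of 28 semaphorin, plexin and neuropilin members 5 rose and 4 fell. The ligands SEMA3A (log2 change 2.68, SE 0.47) and SEMA6A (log2 change 1.63, SE 0.41) rose, and the receptors NRP1 (log2 change -2.99, SE 0.63), NRP2 and PLXNA1 (log2 change -1.32, SE 0.41) fell with the ligand SEMA5A (-1.51). Within GC bins 9 of the 28 rose and 3 fell. Of 18 Eph and ephrin members EPHA7 (16.9 FPKM in KO against 2.86 FPKM in WT) and EFNA1 (2.34 FPKM in KO against 0.433 FPKM in WT) rose and EFNA2 fell.

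Extracellular matrix and contractile genes rose in part. Of 21 collagens 5 rose and 2 fell, COL1A2 at 25.3 FPKM in KO cells against 9.39 FPKM in WT cells (log2 change 1.43, SE 0.44) and COL14A1 at 13.8 FPKM in KO against 3.82 FPKM in WT (log2 change 1.86, SE 0.45) among the rises, and COL7A1 (-1.47) and COL9A1 (-1.08) the falls. Within GC bins 8 collagens rose and 1 fell. COL2A1, on chromosome 12, rose (1.06). Of 23 other matrix members 7 rose and 2 fell. TNC and VCAN, matrix proteins of crest migration paths, stood at 8.80 FPKM in KO against 2.46 FPKM in WT and 101 FPKM in KO against 42.2 FPKM in WT (1.84 and 1.26), and the basement membrane gene NID2 at 4.15 FPKM in KO against 14.7 FPKM in WT (-1.83). Of 22 YAP-target and contractile members 7 rose and 2 fell. YAP1, the transcriptional cofactor of the pathway, stood at 82.3 FPKM in KO against 22.2 FPKM in WT (log2 change 1.89, SE 0.41), ACTA2, a smooth muscle actin, at 44.5 FPKM in KO against 15.1 FPKM in WT (log2 change 1.56, SE 0.60), MYL9 at 151 FPKM in KO against 70.7 FPKM in WT and the target CTGF at 49.6 FPKM in KO against 24.2 FPKM in WT (log2 change 1.03, SE 0.45). The target CYR61 (25.1 FPKM in KO against 26.4 FPKM in WT) was not called, and VGLL2 and VGLL3 were the falls. Actin genes are near-identical in parts, so the authors' split of reads between ACTA2 and ACTG2 is uncertain.

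Growth factor systems showed single strong members. Of 13 IGF members PAPPA was the 1 rise. The IGF binding proteins IGFBP2 (124 FPKM in KO against 244 FPKM in WT) and IGFBPL1 (48.05 FPKM in KO against 102 FPKM in WT) fell, and so did STC2. The neurotrophin receptor gene NTRK2 stood at 6.54 FPKM in KO cells against 27.99 FPKM in WT cells (log2 change -2.10, SE 0.45) and RET, the GDNF receptor, at 4.19 FPKM in KO against 8.93 FPKM in WT (log2 change -1.09, SE 0.51), while NTRK3 (1.504), BDNF (2.71) and GDNF (1.75) rose at low levels. Of 8 EGF members ERBB2 (44.99 FPKM in KO against 24.9 FPKM in WT) and NRG3 (4.10 FPKM in KO against 1.30 FPKM in WT) rose. CXCR4, the receptor of CXCL12 in migrating cells, stood at 20.1 FPKM in KO against 7.92 FPKM in WT (log2 change 1.35, SE 0.52). CXCL12 stood at 3.24 FPKM in KO against 0.893 FPKM in WT (log2 change 1.86, SE 1.11), a rise not called once all changes were centred on their median. Of 28 neuronal genes 4 rose and 3 fell; STMN2 stood at 31.97 FPKM in KO against 5.14 FPKM in WT, GAP43 at 48.04 FPKM in KO against 18.4 FPKM in WT (log2 change 1.38, SE 0.45), and TUBB3, a fall not called within GC bins, at 88.3 FPKM in KO against 155 FPKM in WT.

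Of 19 cholesterol synthesis members 4 rose and 0 fell. HMGCS1 stood at 181 FPKM in KO cells against 106 FPKM in WT cells (log2 change 0.78, SE 0.40), and CYP51A1 and INSIG1 changed by 0.76 and 0.79. None of these 3 was called within GC bins. Of 26 glycolysis and hypoxia members 1 rose and 6 fell. HK1 stood at 59.8 FPKM in KO against 30.02 FPKM in WT (log2 change 0.99, SE 0.42) and PFKL at 18.5 FPKM in KO against 42.4 FPKM in WT (log2 change -1.20, SE 0.45). TPI1, ENO2 and SLC2A3, a glucose transporter, lie on chromosome 12 and stood at 665 FPKM in KO against 1418 FPKM in WT, 43.8 FPKM in KO against 104 FPKM in WT and 265 FPKM in KO against 477 FPKM in WT. Of 23 ATF4 and amino-acid stress members 1 rose and 5 fell. SHMT2, a serine enzyme on chromosome 12, stood at 54.4 FPKM in KO against 174 FPKM in WT (log2 change -1.68, SE 0.42), PHGDH at 153 FPKM in KO against 286 FPKM in WT (log2 change -0.91, SE 0.40), VLDLR at 2.63 FPKM in KO against 19.02 FPKM in WT (log2 change -2.85, SE 0.54), and the chaperone HSPA5 rose, at 209 FPKM in KO against 124 FPKM in WT. Of 25 p53 targets PMAIP1 rose and BAX, FDXR and DDB2 fell. Of 32 cell cycle members CDK6 rose (4.22 FPKM in KO against 0.792 FPKM in WT, log2 change 2.41, SE 0.52) and CCND2, CDK4, CDKN1B and CDKN1C fell, the first 3 of them on chromosome 12. MT2A, a metallothionein, stood at 1.60 FPKM in KO against 7.59 FPKM in WT (log2 change -2.24, SE 0.99).

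Genes of the translation and respiration machinery were lower nearly throughout. Of 76 cytosolic ribosomal protein genes, 0 rose, 21 fell and 74 were below 0 on the log2 scale, with a median of -0.49. RPS28 stood at 422 FPKM in KO cells against 1364 FPKM in WT cells (log2 change -1.69, SE 0.43) and RPL36 at 629 FPKM in KO against 1840.5 FPKM in WT (log2 change -1.55, SE 0.41), both on chromosome 19. RPL41, on chromosome 12 and the most abundant called gene, stood at 6295 FPKM in KO against 13020 FPKM in WT (log2 change -1.05, SE 0.44). The median within GC bins was -0.50, with 13 falls; 4 of the 76 genes lie on chromosome 12. Of 40 respiratory chain genes 0 rose, 6 fell and 34 were below 0, with a median of -0.33. ATP5D stood at 6.39 FPKM in KO against 31.4 FPKM in WT (log2 change -2.30, SE 0.75) and NDUFB7 at 26.5 FPKM in KO against 97.3 FPKM in WT (log2 change -1.88, SE 0.57). Of 54 histone genes 53 were below 0 and 4 fell, with a median of -1.5; HIST1H4K stood at 6.42 FPKM in KO against 26.8 FPKM in WT (log2 change -2.06, SE 0.80). Most histone messages carry no poly-A tail, the libraries were made from poly-adenylated RNA, and reads shared between near-identical histone or ribosomal copies were split in a way not given in the sources used here. Among other abundant genes, the elongation factor gene EEF2 (517 FPKM in KO against 1029 FPKM in WT), the cytokine gene MIF (107 FPKM in KO against 491 FPKM in WT, log2 change -2.20, SE 0.46) and GSTP1 (246 FPKM in KO against 679 FPKM in WT, log2 change -1.46, SE 0.41) fell. NUCKS1, a chromatin protein gene at 313 FPKM in KO against 176 FPKM in WT, and PARP1, a DNA repair gene at 243 FPKM in KO against 147 FPKM in WT, rose and lie on the long arm of chromosome 1; neither was called within GC bins.

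The changes differed with where a gene lies and with its base composition. On the long arm of chromosome 1, 140 of 620 genes rose (22.6%) and 7 fell, with a median log2 change of 0.63 and 10.8% of genes below 0. On chromosome 12, 130 of 718 genes fell (18.1%) and 13 rose, with a median of -0.49 and 88.6% below 0. All other genes, 12006 of them, had a median of -0.01, with 434 rises (3.61%) and 598 falls (4.98%). Chromosome 19 had 112 falls among 985 genes and a median transcript GC content of 58.3%. With the genes in 5 equal bins of transcript GC content, the share that fell was 1.65% in the lowest bin and 15.4% in the highest, and the median change 0.18 and -0.50. With 5 bins of transcript length, the share that rose was 2.7% in the shortest and 7.56% in the longest. The share that fell was 7.6% in the shortest and 4.39% in the longest, and the median change -0.21 and 0.13. The cause of these shifts was not tested. Beside the genes named so above, the calls of BMPR1A, FZD1, FRZB, JAG2, ACVR1B, NRP2, ROBO1, EFNA2, COL7A1, IGFBPL1, CXCL12, PFKL, HSPA5, BAX, FDXR, CDK4, CDKN1C, EEF2 and HIST1H4K were lost within GC bins. Without chromosome 12 and the long arm of chromosome 1, 436 genes rose and 604 fell. Not every gene of these regions is marked where it is named. FLG and LEFTY1, for example, lie on the long arm of chromosome 1, and GDF3 and EMP1 on chromosome 12.

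The same contrast at day 5 rests on other samples of the same lines, and 1068 of 13958 genes tested there rose (7.65%) and 810 fell (5.8%). Of the 589 genes that rose at day 3, 219 also rose at day 5 (37.2%) and 20 fell. Of the 742 that fell, 219 also fell (29.5%) and 13 rose. Seen from day 5, 19.9% of its rises and 26.9% of its falls were called in the same direction at day 3. STRA6, ETV5 and TFAP2B kept their direction, at 18.3 FPKM in KO cells and 1.08 FPKM in WT cells for STRA6 (log2 change 4.09, SE 0.63), and SOX1 and RARB likewise, with log2 changes of -4.43 and -5.30. The difference between the days, tested as the day 5 minus the day 3 log2 change divided by the SE of that difference (2-sided normal p, adjusted by Benjamini and Hochberg's method for 14075 genes), was called for 51 genes (0.362%); with SEs scaled to the deposited p-values 806 genes were called, and with at least 1 FPKM in all 4 groups 18. The 3 smallest adjusted p of the 51 belonged to small RNAs called at neither day, such as MIR3685 (3.24e-63, with SEs of 0.04 at day 3 and 0.03 at day 5), and 4 of the 51 were small RNAs. PAPPA stood at 0.529 FPKM in KO cells and 1.45 FPKM in WT cells at day 5 (log2 change -1.45, SE 0.59), opposite to day 3, and EDN1 at 0.127 FPKM in KO cells and 1.46 FPKM in WT cells (log2 change -3.52, SE 0.99). The actin-binding gene FLNC changed by 2.01 at day 3 and -0.96 at day 5, and NTRK3 by 1.504 and -2.16. MT2A moved the other way, with -2.24 at day 3 and 2.91 at day 5. BMP2 had a log2 change of 3.92 at day 3 and of 0.88 at day 5, where it was not called. NTRK2 fell at both days (-2.10 and -5.61). The adjusted p of the difference was 4.7e-10 for PAPPA, 9.29e-05 for EDN1 and 0.000489 for NTRK2.

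**Figure D5:**
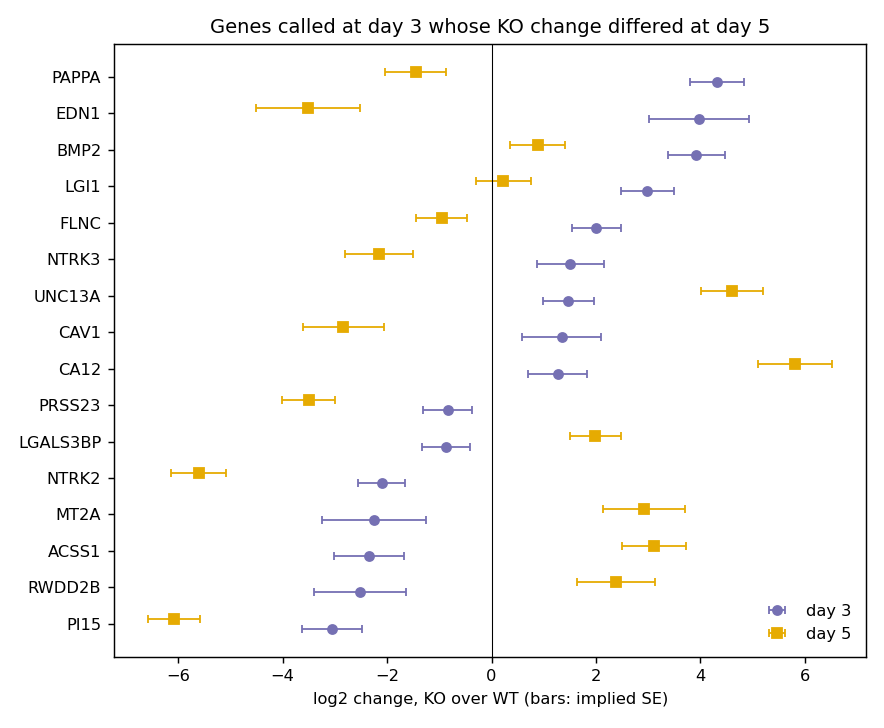
Log2 change of KO over WT at day 3 (circles) and at day 5 (squares) for the 16 members, all at 1 FPKM or more in a group at day 3, that were called at day 3 and whose change differed between the days; bars are the implied SE. PAPPA, EDN1, FLNC, NTRK3 and CAV1 lie above 0 at day 3 and below 0 at day 5, and LGALS3BP, MT2A, ACSS1 and RWDD2B the reverse.

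The promoter of PAPPA is shown because its change was opposite on the 2 days and it holds forkhead letters. It is given in GRCh38.p14 from RefSeq, plus strand, chr9:116153541-116153840, with the same window as above, and the capitals mark the 1 match, beginning 137 bases before the start site. Forkhead letters were also held by EDN1, likewise opposite on the 2 days, and by PKIB and FLG, which fell at day 3. Of all 27305 promoters, 6.05% held such a match, and of the 10421 members matched to a promoter 3.36% did.
PAPPA: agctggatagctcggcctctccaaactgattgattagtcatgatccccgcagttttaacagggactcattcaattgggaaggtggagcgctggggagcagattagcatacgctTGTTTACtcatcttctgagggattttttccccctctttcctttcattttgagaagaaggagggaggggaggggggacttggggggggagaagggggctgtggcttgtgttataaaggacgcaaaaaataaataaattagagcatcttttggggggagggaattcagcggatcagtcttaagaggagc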

How the data were processed

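Poly-adenylated RNA of 16 labelled samples from 4 lines was sequenced. Per the submitters' processing notes, TopHat2 2.1.1, Cuffdiff 2.2.1 and the hg19 build were used. Not given in the sources used here are the annotation, strand setting and treatment of shared reads. In 1 table the authors deposited, for all genes, 1 FPKM per gene and group, a log2 fold change, a test score, a p-value and a q-value, adjusted by the authors over all 15 comparisons; its group names were matched to the labels, HOMO being read as KO. No column holds a value of 1 library, so the depth is unknown and all precision comes from the deposited score.

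From these, log2 changes were computed as KO over WT, and the SE of each as the log2 change over the deposited score. The scaled alternatives multiply the score by 1.6, the median ratio between the deposited p-values and a normal reading of the scores. Medians over lists use FPKM plus 0.1. GC content and length came from the longest GENCODE 29 transcript of each gene name, matched for 12278 members (88.8%). That transcript need not be the form these cells express, and for RPS29 it held 7062 bases. The log2 changes were centred in 20 bins of this GC content. The difference between days was tested on simulated data first. Calculations used Python 3.11.15, numpy 2.4.6, pandas 2.3.3 and scipy 1.17.1. Promoters came from RefSeq.

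The genes named are FOXB1, the 25 largest rises and falls among called genes, the 10 largest gains and losses in FPKM, called genes below 0.1 FPKM in one group and at 1 or more in the other, and for each of 63 lists up to 5 called members plus abundant or defining members not called. Other members of short lists are named with their counts, and a few genes that the rule names are not reported here. The members and lists were chosen with earlier results of these data known. Where nothing says that samples came from separate cultures, p-values measure only the spread between these samples, which may be technical.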

Additional observations from a re-analysis of the deposited data

Results flagged for a closer look

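The KO over WT change differed between day 5 and day 3 for each of the following genes, by the test of the difference over all 14075 genes. Values are the day 5 minus the day 3 log2 change, and no cause was tested. They are 27 of the 51 genes called there; of the other 24, 4 were small RNAs and 20 were not.

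Among genes called in opposite directions, the difference was -5.77 for PAPPA, -7.49 for EDN1, -2.96 for FLNC, -3.66 for NTRK3 and -4.18 for CAV1, which rose at day 3 and fell at day 5. It was 5.45 for ACSS1, 4.91 for RWDD2B, 2.86 for LGALS3BP and 5.16 for MT2A, which fell at day 3 and rose at day 5. ANKRD1, below the floor at day 3 (0.875 FPKM in KO cells and 0.294 FPKM in WT cells), is not among the 27. It was called higher at day 3 (1.57) and lower at day 5 (-3.80), a difference of -5.37. ACSS1, a mitochondrial acetate enzyme, stood at 0.673 FPKM in KO cells and 3.42 FPKM in WT cells at day 3 and at 11.5 FPKM in KO cells and 1.33 FPKM in WT cells at day 5.

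Among genes called in the same direction on both days, the rises grew by 4.54 for CA12, a carbonic anhydrase, and by 3.14 for UNC13A, a gene of synaptic vesicle release. The falls deepened, with differences of -3.51 for NTRK2, -3.03 for PI15 and -2.66 for PRSS23. BMP2 (-3.04) and LGI1 (-2.75), a secreted neuronal protein gene, rose at day 3 and were not called at day 5.

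The other 11 genes were called at day 5 and not at day 3. SOX10 differed by 5.00, S100B, a glial calcium-binding protein gene, by 5.35, and FABP7, a fatty acid binding protein gene of glia, by 2.81. MYC differed by 4.38, EGFR by 3.54, RTN1 by 3.64, OLIG3 by 4.42, PRAME by 5.21, TGFBI by 3.29 and EDNRA by 3.13. CYR61 differed by -2.47, with 25.1 FPKM in KO cells and 26.4 FPKM in WT cells at day 3 and 14.3 FPKM in KO cells and 83.5 FPKM in WT cells at day 5. MYC stood at 16.1 FPKM in KO cells and 11.97 FPKM in WT cells at day 3 and at 208 FPKM in KO cells and 7.46 FPKM in WT cells at day 5, and SOX10 at 1.27 FPKM in KO cells and 0.455 FPKM in WT cells at day 3 and 34.6 FPKM in KO cells and 0.388 FPKM in WT cells at day 5.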

How the results depend on the processing

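The counts of 589 rises and 742 falls stayed within 1.5 times under most alternatives: adjustment over the comparison alone (540 and 663), at least 1 FPKM in both groups (431 and 636), no floor (637 and 759), an absolute log2 change of at least 1 (434 and 551), centring on the median (665 and 792) and leaving out chromosome 12 and the long arm of chromosome 1 (436 and 604). A normal p of the deposited score gave 148 rises and 95 falls, of which 135 and 84 were shared with the deposited calls. Centring within GC bins gave 352 falls (295 shared) and 582 rises (439 shared). The same scaled score without centring gave 606 and 738 over the genes with a GC value, and 640 and 816 over all members; both were chosen after seeing the data. The difference between days was called for 806 genes with the scaled SE and for 18 with at least 1 FPKM in all 4 groups, against 51. The cause was not tested. Of 302 named genes, 298 kept their call with median centring and 4 lost it, and 62 lost it within GC bins; no direction reversed. With a pseudocount of 1, 85 changes moved by more than their SE. No paired analysis was possible because the table holds 1 value per gene and group, and for the same reason no library could be left out. Depth is unknown, so a listed 0 has no limit.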

Other observations

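Counts for further lists are given here, beside shares of 4.3% rises and 5.42% falls over all tested members. Of 7 TGF-beta members none was called. Of 10 dorsoventral neural tube factors NR2F1 (3.51 FPKM in KO against 1.23 FPKM in WT) and LHX5 (11.3 FPKM in KO against 1.83 FPKM in WT) rose and DBX1 (1.36 FPKM in KO against 18.4 FPKM in WT) fell. Of 7 glial members SLC1A3 rose (21.5 FPKM in KO against 11.1 FPKM in WT). Of 10 late crest and mesenchymal transition factors 2 rose and 0 fell. Of 3 endoderm members CXCR4 rose and SERPINA1 fell (0.123 FPKM in KO against 1.65 FPKM in WT), and neither of 2 endothelium and blood members was called. Of 4 epidermis members PERP rose (10.3 FPKM in KO against 5.42 FPKM in WT) and FLG fell.

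Of 14 integrin and laminin members ITGA5 (29.9 FPKM in KO against 14.8 FPKM in WT) and LAMC1 (62.1 FPKM in KO against 29.2 FPKM in WT) rose and ITGB8 (2.06 FPKM in KO against 3.83 FPKM in WT) fell. Of 5 endothelin members EDN1 and EDNRB rose. Of 10 chemokine members CXCL12, CXCR4 and CCL2 (7.94 FPKM in KO against 2.76 FPKM in WT) rose. Of 25 interferon members IFI16 (3.28 FPKM in KO against 0.468 FPKM in WT) and IFITM1 (59.96 FPKM in KO against 31.2 FPKM in WT) rose and IFI6 (3.42 FPKM in KO against 22.8 FPKM in WT) fell. All 5 metallothioneins were lower in KO cells, and MT2A was the 1 call. MYCL1 (17.3 FPKM in KO against 9.31 FPKM in WT) was the 1 call among 15 MYC and LIN28 members. Of 23 imprinted members PEG3 (33.9 FPKM in KO against 19.4 FPKM in WT) rose and 2 fell. TKTL1 (1.31 FPKM in KO against 0.146 FPKM in WT) rose, of 3 cancer-testis members. Of 19 housekeeping genes 1 fell, and of 25 LINC RNAs LINC00467 rose (8.06 FPKM in KO against 3.68 FPKM in WT). The calls of SLC1A3, PERP, PEG3 and LINC00467 were lost within bins of like GC content.

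Of 227 ZNF genes on chromosome 19, 1 rose and 9 fell, and of 240 elsewhere 9 rose and 5 fell. Of 186 solute carriers 4 rose and 15 fell. Of 33 potassium channels KCND3, KCNJ8 and KCNK12 fell. Of 472 small RNA genes among the members 3 were called; 153 were listed at 0 in KO cells and 30 in WT cells.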
